A study of Mus musculus with 8 samples.

Results

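The 7 genes described here encode subunits of the GABA-A receptor: the alpha subunit genes Gabra2, Gabra3, Gabra4 and Gabra5, the beta subunit genes Gabrb1 and Gabrb2, and the delta subunit gene Gabrd. They are picked out by gene symbol, 7 of the 19 GABA-A and rho subunit genes among the 55032 genes counted. Total RNA of the striatum was sequenced from 4 WT and 4 16p11.2+/- mice, 1 library per mouse. All were female C57BL/6 mice at postnatal day 60, and the 16p11.2+/- mice (abbreviated DF in the mouse names) carry a heterozygous deletion, and no treatment is named for either group. The mice are WT-1015, WT-1041, WT-1061, WT-1063, DF-1018, DF-1037, DF-1059 and DF-1062. The comparison of genotypes asks which striatal transcripts differ in this mouse model of autism spectrum disorder.

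GABA-A receptors are pentameric chloride channels opened by GABA, the main inhibitory transmitter of the brain, and most hold alpha and beta subunits together with a gamma or a delta subunit. GABA binds between alpha and beta subunits. Receptors with a gamma subunit are mostly gathered at synapses for brief inhibition, whereas receptors with alpha4 and delta lie outside synapses, where they sense low ambient GABA and carry tonic inhibition. The alpha4 and delta subunits are known from striatal medium spiny neurons, thalamic relay neurons and dentate granule cells, and medium spiny neurons, the GABAergic output neurons of the striatum, also use alpha2.

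Gabra4 (ENSMUSG00000029211) lies on the minus strand of chromosome 5 from 71569749 to 71658308, and Gabrb1 (ENSMUSG00000029212) lies head to head with it on the plus strand from 71658113 to 72149037 (GENCODE M21, GRCm38). Their 5′ ends overlap, and their exons share 46 bases on opposite strands, which is 0.756% of the exon length of Gabra4 and 0.332% of that of Gabrb1. Gabra2 (ENSMUSG00000000560) is in the same cluster, on the minus strand from 70957597 to 71095849, and the cluster spans 1398.0 kb from Gabrg1 to Gabrb1. Gabra5 (ENSMUSG00000055078) lies on the minus strand of chromosome 7 from 57407672 to 57510059, next to Gabrg3. The exons of Gabra5 share 148 bases (4.976%) with Gm9962 on the opposite strand. Gabrb2 (ENSMUSG00000007653) lies on the plus strand of chromosome 11 from 42419757 to 42629028. Gabra3 (ENSMUSG00000031343) lies on the minus strand of the X chromosome from 72432681 to 72656848, and Gabrd (ENSMUSG00000029054) on the minus strand of chromosome 4 from 155384980 to 155398112. The strand setting of the counting is not given in the sources used here, so reads in the shared bases cannot be assigned to a strand.

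Promoter windows from 250 bases before to 50 bases after a start site (RefSeq, GRCm38.p6) were found for 6 of the 7 genes, with 10 windows in all, and there was none for Gabrd. Of these, 3 windows are shown. Gabra4 and Gabrb1 were taken because these neighbours start close together and had unlike levels across mice, and Gabra3 because its window holds no CpG. The starts of Gabra4 and Gabrb1 are 387 bases apart with the upstream RefSeq start of Gabrb1, and 196 with the GENCODE starts given above. Capitals mark matches on either strand to the GC box, GGGCGG, or to the TATA box, TATAAA. A match on the opposite strand appears as its reverse complement. The windows are at chr5:71658259-71658558 on the minus strand for Gabra4, chr5:71657671-71657970 on the plus strand for the upstream start of Gabrb1, and chrX:72656870-72657169 on the minus strand for the upstream start of Gabra3, each written from 5′ to 3′.
Gabra4: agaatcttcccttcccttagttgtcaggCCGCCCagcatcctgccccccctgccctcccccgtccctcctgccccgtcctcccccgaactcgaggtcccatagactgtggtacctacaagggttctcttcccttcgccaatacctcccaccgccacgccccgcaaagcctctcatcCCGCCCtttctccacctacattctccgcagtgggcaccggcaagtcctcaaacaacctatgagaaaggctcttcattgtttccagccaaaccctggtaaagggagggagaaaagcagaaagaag
Gabrb1: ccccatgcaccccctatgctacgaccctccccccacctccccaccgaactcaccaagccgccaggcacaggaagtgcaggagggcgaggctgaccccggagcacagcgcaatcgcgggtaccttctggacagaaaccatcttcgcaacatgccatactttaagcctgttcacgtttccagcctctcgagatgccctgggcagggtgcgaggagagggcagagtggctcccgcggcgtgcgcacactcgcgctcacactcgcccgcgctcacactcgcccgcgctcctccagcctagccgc
Gabra3: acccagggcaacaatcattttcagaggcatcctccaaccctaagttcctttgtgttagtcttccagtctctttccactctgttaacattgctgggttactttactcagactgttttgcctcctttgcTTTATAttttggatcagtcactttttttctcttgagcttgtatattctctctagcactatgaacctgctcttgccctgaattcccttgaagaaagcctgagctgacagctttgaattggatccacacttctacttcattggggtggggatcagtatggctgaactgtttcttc

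The window of Gabra4 holds 12 CpG and 2 matches to GGGCGG, with a GC content of 58.7%. The window of Gabrb1 is richer, with a GC content of 66.0% and 25 CpG, but it has 0 matches to GGGCGG. The window of Gabra3 has 0 CpG, a GC content of 43.0% and 1 match to TATAAA, which is on the opposite strand. The upstream window of Gabrb2, not shown, has 1 match to TATAAA on its own strand. Whether either match acts as a TATA box was not tested. Among the other windows, that of Gabra2 has a GC content of 70.0% with 25 CpG, and the median over all promoter windows in the table is 52.7%. Of 32851 windows, 35.7% hold GGGCGG and 13.6% hold TATAAA on either strand, so either match is common. TGACGTCA, the cyclic AMP response element, and GCGTGGGCG, an early growth response motif, had 0 matches in the 3 windows shown and are found in 1.79% and 0.61% of all windows.

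The libraries held 15125051 to 16523429 counted reads each. The 5 deleted genes examined (Aldoa, Taok2, Mapk3, Kctd13 and Maz) matched the labels. Their mean log2 CPM (the count as a rate of the library total after TMM scaling) was 7.11 to 7.28 in WT and 6.13 to 6.28 in 16p11.2+/- mice. The pieces differed in their markers within both genotypes. The mean log2 CPM of 10 medium spiny neuron genes was 6.90 in DF-1037 and 6.49 in DF-1062, against 8.23 to 8.97 in the other 6 mice, and all 10 were detected in every mouse. The mean of 9 thalamus genes was 5.73 to 6.65 in WT-1063, DF-1018, DF-1037 and DF-1062 and 3.27 to 3.53 in the remaining 4 mice. The mean of 10 cortical glutamatergic genes was 2.52 to 3.15 in WT-1063, DF-1018 and DF-1062 and 4.73 to 5.91 elsewhere. Cux2, Rasgrf2 and Lamp5 did not keep this split, as the other genes of the list did. Cux2 had 640 to 1008 counts in the mice with the low mean and 286 to 525 in WT-1015, WT-1041 and WT-1061. Rasgrf2 was highest in DF-1062 (2973 counts), and Lamp5 had 1067 counts in DF-1018 against 625 in DF-1037. DF-1062 also had the highest level of 9 of 9 hypothalamus genes, a list picked after their values were seen, such as Oxt with 954 counts against 0 to 14 in the others. In DF-1062 the neuropeptide gene Avp had 567 counts against 0 to 21, and the mean of these 9 genes was 4.17 against -2.12 to 0.26. The same mouse was lowest for 8 of 8 oligodendrocyte and 6 of 6 microglia genes. WT-1063 had the highest level of 6 of 6 choroid plexus genes, such as Ttr with 84201 counts against 21 to 8351 in the others. The pieces can hold tissue next to the striatum, and its part in the levels below was not tested. In bulk tissue, fewer cells of a type and less RNA per cell cannot be told apart.

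All 7 subunit genes were well expressed, with a mean FPKM (fragments per kilobase of exon, scaled to the library total, which compares genes per length) in WT striatum from 9.98 for Gabra5 to 39.9 for Gabra4. The order in WT was Gabra4, Gabrd, Gabra3, Gabra2, Gabrb2, Gabrb1 and Gabra5, between the 94.8th and the 73.4th percentile of the 18294 genes tested. Gabra4 was above Gabrd in 8 of 8 mice, and Gabrb1 was above Gabra5 in 8 of 8. The 4 steps between them were not kept in every mouse, since Gabrd was above Gabra3 in 4 of 8 mice, and Gabra3 above Gabra2, Gabra2 above Gabrb2 and Gabrb2 above Gabrb1 in 5 of 8 each. The WT ranges of each pair of neighbours in this order overlapped.

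**Figure D1:**
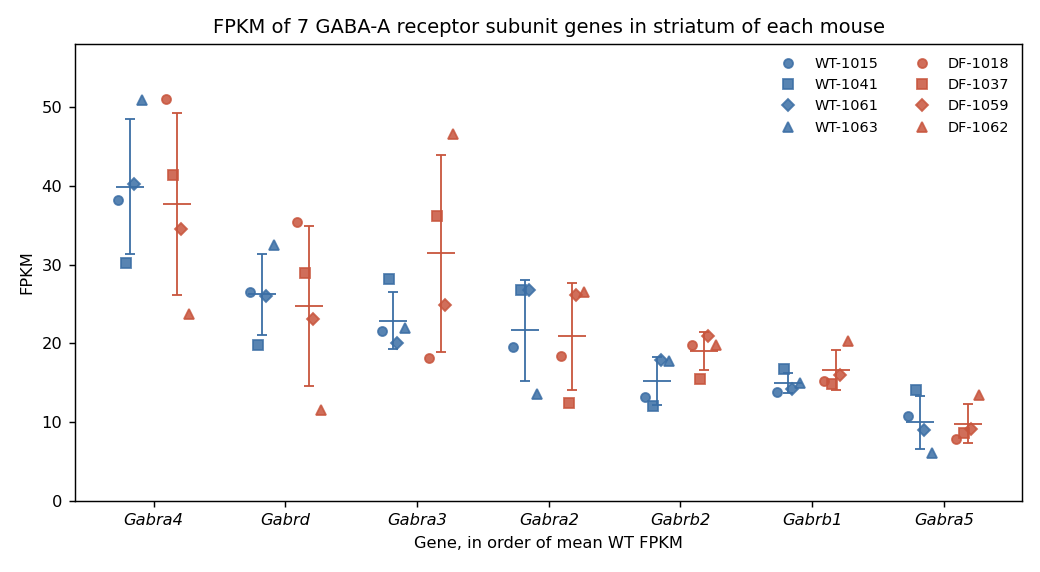
FPKM of the 7 subunit genes in each mouse, with genes on the horizontal axis in order of mean WT FPKM. Points are mice (blue WT, red 16p11.2+/-, 1 symbol per mouse) and bars are mean and SD (n = 4). The genotypes overlap for every gene, and DF-1062 is lowest for Gabra4 (23.8) and Gabrd (11.5) and highest for Gabra3 (46.5).

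None of the 7 genes passed the threshold between genotypes. In the edgeR fit to the counts (quasi-likelihood test), 20 of 18294 genes (0.109%) had an adjusted p under 0.05 and 0 of the 7 subunit genes did. At an unadjusted p under 0.05 the counts were 790 genes (4.32%) and 0 of the 7. FPKM values of the genotypes did not overlap for 517 genes (2.83%) and overlapped for each of the 7. The log2 fold change of 16p11.2+/- over WT was above 0 for 3 subunit genes and below 0 for 4, with a median of -0.06 against -0.009 over all genes tested. The lowest adjusted edgeR p among the 7 was 0.859. DESeq2, limma-voom and the other alternative fits also called 0 of the 7.

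**Figure D2:**
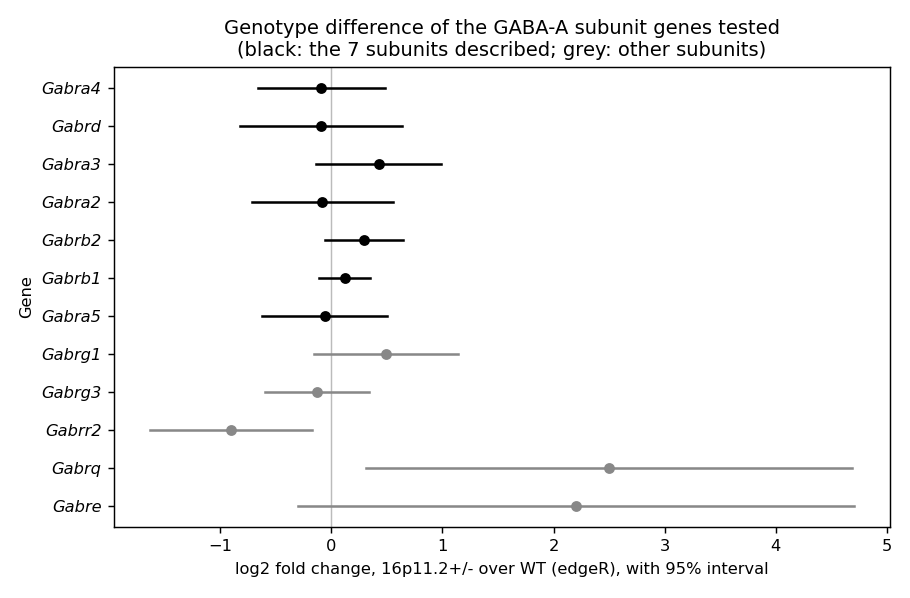
Log2 fold change of 16p11.2+/- over WT from edgeR with its 95% interval (horizontal axis) for 12 subunit genes tested (vertical axis). Black marks the 7 genes described and grey 5 others. The interval of each of the 7 holds 0, and it is narrowest for Gabrb1 (-0.11 to 0.35) and widest for Gabrd (-0.82 to 0.64).

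Gabra4, the alpha subunit of extrasynaptic receptors with delta, was the most abundant of the 7. Its FPKM was 38.2, 30.1, 40.3 and 50.9 in WT-1015, WT-1041, WT-1061 and WT-1063, and 51.1, 41.4, 34.5 and 23.8 in DF-1018, DF-1037, DF-1059 and DF-1062. The 16p11.2+/- mice thus held both the highest and the lowest value, and the WT values lay between them. Mean FPKM of WT mice was 39.9 ± 8.56 and the 16p11.2+/- mean 37.7 ± 11.5 (SD, n = 4 each). The log2 fold change was -0.09 (standard error 0.25, 95% interval -0.66 to 0.48, adjusted p = 0.94 with edgeR), so that a difference of 0.632-fold to 1.395-fold lies within the interval. Without DF-1062 the log2 fold change was 0.10.

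Gabrd, the delta subunit that takes the place of gamma in extrasynaptic receptors, had nearly the order of mice seen for Gabra4. Its FPKM was 26.6, 19.8, 26.0 and 32.5 in the WT mice in the same order, and 35.4, 29.0, 23.1 and 11.5 in the 16p11.2+/- mice. DF-1018 was again the highest, WT-1063 the next, and DF-1062 the lowest of the 8, with 547 counts against 872 to 1550 in the others. Gabrd averaged 26.2 ± 5.18 FPKM in WT and 24.7 ± 10.1 in 16p11.2+/- mice (SD, n = 4 each). The log2 fold change of Gabrd was -0.09 (standard error 0.32, 95% interval -0.82 to 0.64, adjusted p = 0.954 with edgeR), and it was 0.17 without DF-1062. The highest mouse was 3.07-fold above the lowest, the widest span among the 7 genes.

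Gabra4 and Gabrd moved together across mice. Likeness was measured as the root mean square difference between 2 genes' log2 CPM over the 8 mice, after each gene's mean was subtracted, among 11077 genes with a mean log2 CPM of at least 3. Gabra4 was the closest of all these genes to Gabrd, at 0.161, where the root mean square deviation of Gabrd itself was 0.506. From Gabra4, Gabrd was at place 7 of the genes, behind Hlf (0.106), Inpp5j (0.11), Anxa3 (0.143) and 3 others. Gabrd's next closest genes were Pcp4 and Hlf, both at 0.174. Hlf encodes a circadian bZIP transcription factor, Inpp5j a phosphoinositide phosphatase and Pcp4 a calmodulin regulator. The 8 mice share their libraries between genes, and likeness here is a description. The ratio of the FPKM of Gabra4 to that of Gabrd was 1.43 to 1.57 in 7 mice and 2.06 in DF-1062.

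The levels of both genes went with the markers of the pieces in part. DF-1062, the lowest mouse for both, had the lowest level of 9 of 10 medium spiny neuron genes, but DF-1037, with almost as low a marker level, had 41.4 for Gabra4 and 29.0 for Gabrd, above the WT means. Of the 4 mice high in thalamus genes, WT-1063, DF-1018 and DF-1037 were the 3 highest of all mice for both Gabra4 and Gabrd, and DF-1062 was the lowest. The part of these markers in the levels was not tested. Fits with marker levels as covariates give only the genotype difference. With the medium spiny neuron score, the log2 fold change of Gabra4 was 0.06 and that of Gabrd 0.12. With the hypothalamus score they were 0.17 and 0.32. That score mainly sets DF-1062, the lowest mouse for both genes, apart from the others (4.17 against -2.12 to 0.26). With the thalamus score the values were -0.23 and -0.22, and with the cortical score -0.13 and -0.12.

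**Figure D3:**
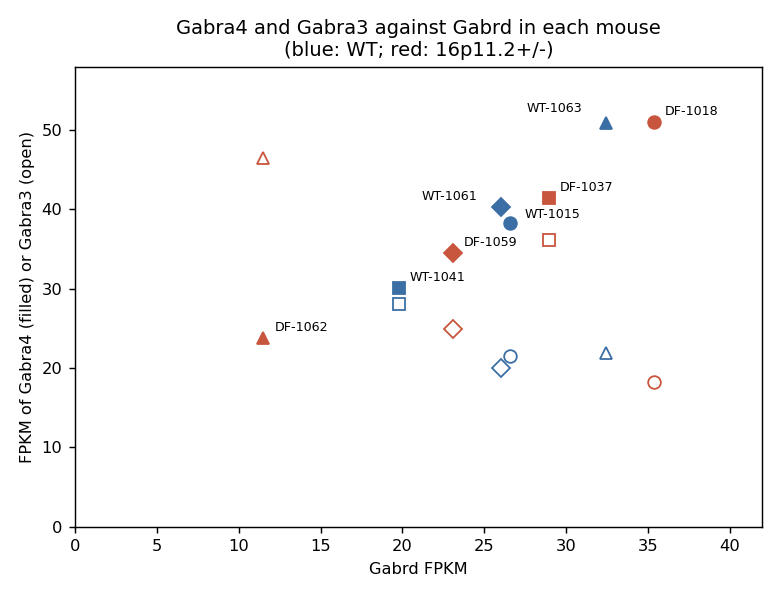
FPKM of Gabra4 (filled symbols) and Gabra3 (open symbols) on the vertical axis against FPKM of Gabrd on the horizontal axis, 1 pair of symbols per mouse (blue WT, red 16p11.2+/-). The filled symbols climb from DF-1062 (Gabrd 11.5, Gabra4 23.8) to DF-1018 (35.4 and 51.1), whereas Gabra3 is highest in DF-1062 (46.5) and lowest in DF-1018 (18.2).

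Gabra3, an alpha subunit known from monoaminergic neurons and the reticular nucleus of the thalamus, had the largest log2 fold change of the 7. Its FPKM was 21.5, 28.1, 19.98 and 21.9 in the WT mice and 18.2, 36.1, 24.9 and 46.5 in DF-1018, DF-1037, DF-1059 and DF-1062. Only DF-1037 and DF-1062 were above the WT mice, and DF-1018 was below them all. The WT mean was 22.9 ± 3.60 and the 16p11.2+/- mean 31.4 ± 12.5 (SD, n = 4 each), with a log2 fold change of 0.43 (standard error 0.25, 95% interval -0.13 to 0.99, adjusted p = 0.859 with edgeR). The difference was within the spread between mice. DF-1037 and DF-1062 are the mice with the low medium spiny neuron markers, and their Gabra3 FPKM of 36.1 and 46.5 stood against 18.2 to 28.1 in the other 6. Without both mice, a choice made after seeing the data, the log2 fold change was -0.08, and without DF-1062 alone it was 0.22. They held the highest Gabra3 values of all mice, so leaving them out had to lower the fold change. With marker scores as covariates the log2 fold change was 0.36 (thalamus), 0.02 (medium spiny neuron), 0.47 (cortical) and 0.05 (hypothalamus). The part of the markers in the levels was not tested.

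The pattern of Gabra3 was unlike that of Gabra4 and Gabrd, with opposite extremes in DF-1018 and DF-1062. DF-1037, however, was above the WT mean for Gabra3, Gabra4 and Gabrd alike, at 36.1, 41.4 and 29.0 FPKM. By the measure of likeness, Gabra3 was 0.729 from Gabra4 and 0.853 from Gabrd, at places 10616 and 10664 of the 11077 genes ranked from each. This distance also grows with the spread of each gene, so it does not measure reversal. The ratio of Gabra4 to Gabra3 FPKM ran from 2.81 in DF-1018 to 0.511 in DF-1062. Closest to Gabra3 were Stmn2 (0.088), a neuronal microtubule regulator, and Nectin1 (0.09), a cell adhesion molecule.

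Gabra2, the alpha subunit of synapses on medium spiny neurons and of axon initial segments elsewhere, had an FPKM of 19.5, 26.8, 26.8 and 13.6 in the WT mice and 18.4, 12.4, 26.2 and 26.5 in the 16p11.2+/- mice. Its lowest values were in DF-1037 and WT-1063, 1 mouse of each genotype, and DF-1062 had nearly as much Gabra2 as the highest WT mice despite its low medium spiny neuron markers. WT-1063 and DF-1037 had the highest thalamus scores, 6.54 and 6.65. The other mice high in thalamus genes, DF-1018 and DF-1062, had 18.4 and 26.5, so that Gabra2 overlapped between mice high (12.4 to 26.5) and low (19.5 to 26.8) in these genes. With marker scores as covariates, the log2 fold change of Gabra2 was 0.28 (thalamus), 0.02 (medium spiny neuron), -0.04 (cortical) and -0.21 (hypothalamus). The part of the markers in the levels of Gabra2 was not tested. The WT mean was 21.7 ± 6.41 and the 16p11.2+/- mean 20.9 ± 6.80 (SD, n = 4 each), with a log2 fold change of -0.08 (standard error 0.28, 95% interval -0.71 to 0.55, adjusted p = 0.953 with edgeR). The genes closest to Gabra2 were Nos1 (0.167), the neuronal nitric oxide synthase, the gamma3 subunit gene Gabrg3 (0.204) and the sodium channel beta subunit gene Scn3b (0.207). Gabrg3 had its lowest FPKM in the same 2 mice, at 3.80 in WT-1063 and 2.997 in DF-1037 against 5.04 to 5.95 in the others.

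Gabra5, the alpha subunit of extrasynaptic receptors of hippocampal pyramidal neurons, was the lowest of the 7. Its FPKM was 10.8, 14.1, 9.05 and 6.03 in the WT mice and 7.88, 8.63, 9.16 and 13.4 in the 16p11.2+/- mice. Both extremes were WT mice, and every 16p11.2+/- mouse lay between them. The WT mean was 9.98 ± 3.35 and the 16p11.2+/- mean 9.77 ± 2.47 (SD, n = 4 each), with a log2 fold change of -0.06 (standard error 0.25, 95% interval -0.62 to 0.50, adjusted p = 0.96 with edgeR). Gabra5 had 290 to 658 counts per mouse, which gives a counting error of 5.87% at the lowest count, well under the CV of 33.6% between WT mice. Its closest genes were Dcx (0.104), a neuronal microtubule protein, and Syt5 (0.117), a synaptotagmin.

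Over both genotypes, the beta subunit genes were steadier than the others described, with an SD of log2 CPM within genotypes of 0.25 for Gabrb2 and 0.14 for Gabrb1. In WT mice alone the SD of Gabrb2 was 0.29, close to that of Gabrd (0.30) and Gabra4 (0.31) and above that of Gabra3 (0.20). Gabrb2, a beta subunit of many synaptic receptors, had an FPKM of 13.2, 12.1, 17.9 and 17.8 in the WT mice and 19.8, 15.4, 20.9 and 19.7 in the 16p11.2+/- mice. DF-1018, DF-1059 and DF-1062 were above the highest WT mouse, and DF-1037 was within the WT range. The WT mean was 15.3 ± 3.03 and the 16p11.2+/- mean 19.0 ± 2.41 (SD, n = 4 each), with a log2 fold change of 0.29 (standard error 0.15, 95% interval -0.06 to 0.64, unadjusted p = 0.0911 and adjusted p = 0.859 with edgeR). The log2 fold change of Gabrb2 was above 0 in each alternative fit, from 0.19 to 0.42, and its lowest adjusted p over them was 0.615. Its closest genes were Gm20075 (0.084), Xkr8 (0.1), a phospholipid scramblase, and Inpp5f (0.105), a phosphoinositide phosphatase.

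Gabrb1 varied least. Its FPKM was 13.9, 16.8, 14.2 and 14.96 in the WT mice and 15.2, 14.8, 16.0 and 20.3 in the 16p11.2+/- mice, of which DF-1062 alone was above the WT range. The WT mean was 14.9 ± 1.303 and the 16p11.2+/- mean 16.6 ± 2.53 (SD, n = 4 each). The log2 fold change was 0.12 (standard error 0.10, 95% interval -0.11 to 0.35, adjusted p = 0.859 with edgeR), and the interval in fold, 0.929 to 1.276, was the tightest of the 7. The genes closest to Gabrb1 were Stub1 (0.032), a ubiquitin ligase, Pex14 (0.037), a peroxisome import protein, and Pam (0.04), a peptide amidating enzyme. Gabra4, its neighbour across the windows shown above, was 0.488 from Gabrb1, at place 10168 of the 11077 genes ranked from Gabrb1. Ranked from Gabra4, Gabrb1 was at place 8707. The distance grows with the spread of Gabra4, whose root mean square deviation was 0.376 against 0.133 for Gabrb1. The windows of this pair were taken partly because of its unlike levels. In DF-1062 Gabrb1 was at its highest FPKM of the 8 mice and Gabra4 at its lowest.

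Between mice of a genotype, 6 of the 7 genes varied more than the median gene with a mean log2 CPM of at least 3. The SD of log2 CPM within genotypes was 0.57 for Gabrd, 0.49 for Gabra2, 0.43 for Gabra4 and 0.41 for Gabra3 and Gabra5, between the 88.5th and the 94.8th percentile of the 11077 genes, whose median was 0.17. It was 0.25 for Gabrb2 and 0.14 for Gabrb1, at the 71.8th and the 36.1th percentile. The spread was not the same in both genotypes. For Gabrd the SD was 0.30 in WT and 0.75 in 16p11.2+/- mice, and for Gabra3 0.20 and 0.55, whereas for Gabra5 it was 0.51 and 0.28. DF-1062 lies at an end of the range for 4 of the 7 genes, and the difference in spread was not tested.

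**Figure D4:**
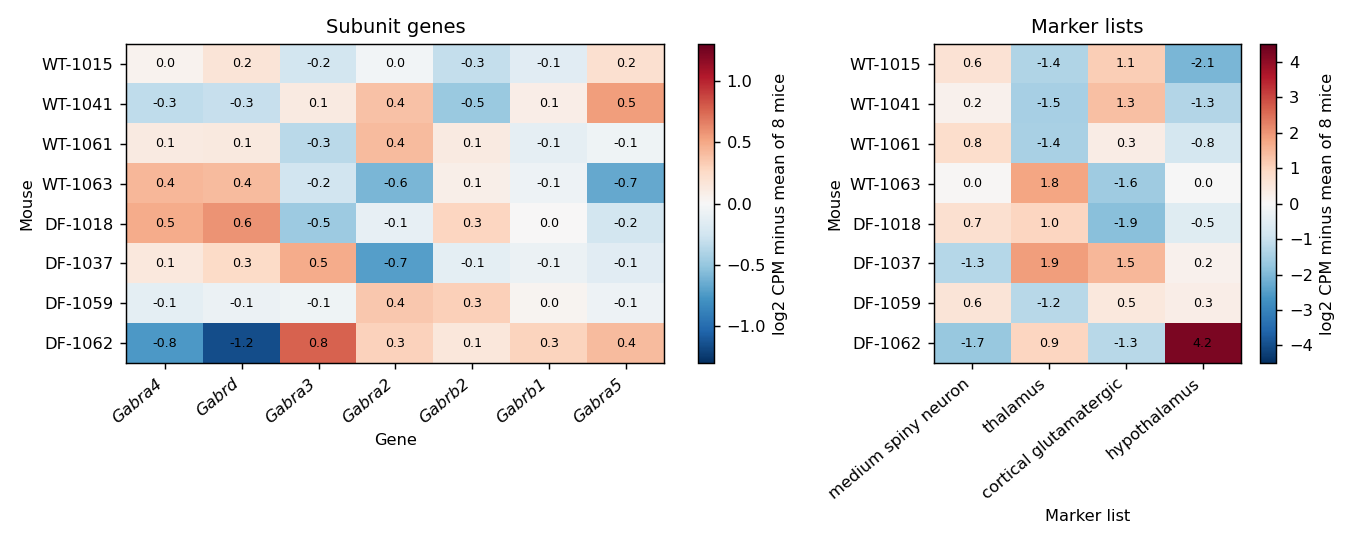
Log2 CPM of each of the 7 subunit genes (left) and mean log2 CPM of 4 marker lists (right) in each mouse, as the difference from the mean of the 8 mice (red above, blue below, separate colour scales). In DF-1062 Gabra4, Gabrd and the medium spiny neuron genes are low while Gabra3 and the hypothalamus genes are high, and in WT-1063 and DF-1037 the thalamus genes are high and Gabra2 is low, whereas in DF-1062 thalamus genes are high with Gabra2 near its highest.

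The balance of the 4 alpha subunit transcripts differed more between mice than between genotype means. Of the summed FPKM of Gabra2, Gabra3, Gabra4 and Gabra5, Gabra4 made up 42.5% ± 10.1 in WT and 38.4% ± 13.3 in 16p11.2+/- mice (SD, n = 4 each), with 55.1% in WT-1063 and 21.6% in DF-1062 as extremes. Gabra3 made up 19.0% in DF-1018 to 42.2% in DF-1062, Gabra2 12.5% in DF-1037 to 27.9% in WT-1061, and Gabra5 6.53% in WT-1063 to 14.2% in WT-1041. In DF-1062 Gabra3 held the largest share of the 4 and Gabra4 the next to smallest, and in the other 7 mice Gabra4 held the largest. These are shares of transcripts, and protein was not measured in these files.

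**Figure D5:**
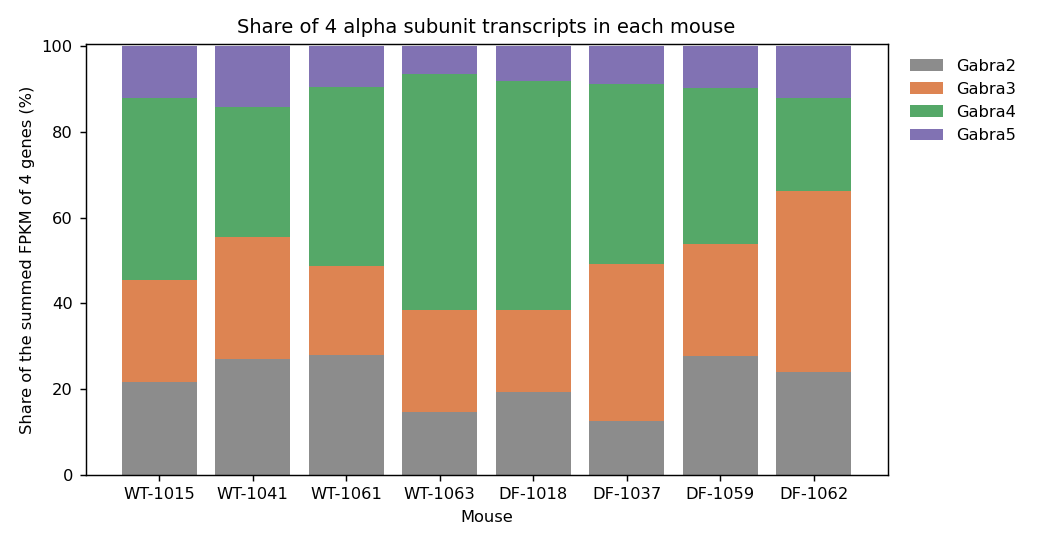
Share of the summed FPKM of Gabra2, Gabra3, Gabra4 and Gabra5 (vertical axis, percent) held by each gene in each mouse (stacked bars, 1 bar per mouse). Gabra4 holds 55.1% in WT-1063 and 21.6% in DF-1062, where Gabra3 holds 42.2%.

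The beta subunit genes kept a closer balance. The FPKM ratio of Gabrb2 to Gabrb1 was 0.720 in WT-1041 to 1.26 in WT-1061 among WT mice, and 0.972 in DF-1062 to 1.31 in DF-1059 among 16p11.2+/- mice, so that the genotypes overlapped. Gabrb2 was below Gabrb1 in WT-1015, WT-1041 and DF-1062 and above it in the other 5 mice.

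Of 9 other subunit genes examined, 5 had enough counts to be tested, 3 with a log2 fold change above 0 and 2 below, with a median of 0.49. With edgeR, 0 of the 5 had an adjusted p under 0.05, and Gabrr2 and Gabrq had an unadjusted p under 0.05 (4.32% over all genes tested). Of the gamma subunit genes, Gabrg1 was 15.3 in DF-1062 against 4.67 to 8.64 FPKM in the other mice (log2 fold change 0.49, standard error 0.29), and the log2 fold change of Gabrg3 was -0.13 (standard error 0.21).

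The theta subunit gene Gabrq and the epsilon subunit gene Gabre, both known from hypothalamus, were near 0 in most mice. Gabrq had 885 counts in DF-1062, 242 in DF-1059 and 10 to 81 in the other 6, and Gabre had 285, 82 and 0 to 43. Their log2 fold changes were 2.50 (standard error 0.96) and 2.20 (standard error 1.10), with an adjusted edgeR p of 0.859 for each. DF-1062 was also the highest mouse for the hypothalamus score, at 4.17. DF-1059 had 0.26, close to 0.13 in DF-1037 and -0.06 in WT-1063, which had 43 and 81 counts of Gabrq. Of the list, Irs4 and Calcr had 279 and 75 counts in DF-1059, against 45 and 8 in DF-1037. Avp, Sim1 and Otp had 4, 2 and 4 in DF-1059, against 21, 6 and 6 in DF-1037. The part of these markers was not tested. Gabrr2, a rho subunit gene, had 1.88 ± 0.657 FPKM in WT and 1.013 ± 0.277 in 16p11.2+/- mice (SD, n = 4 each, log2 fold change -0.90, standard error 0.32, adjusted p = 0.859 with edgeR), from 25 to 82 counts per mouse. Gabra6, Gabrp, Gabrr1 and Gabrr3 had 0 to 8 counts per mouse and were not tested.

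Of the 23 genes of receptor anchoring and trafficking, 12 had a log2 fold change above 0 and 11 below, with a median of 0.007. With edgeR, 0 of 23 had an adjusted p under 0.05 and 1 an unadjusted p under 0.05, where 4.32% of all genes tested did. This was Plcl1, which encodes a phospholipase-like protein that binds GABA-A receptors and GABARAP, and its genotypes did not overlap, as for 2.83% of all genes tested. Its FPKM was 15.01, 14.5, 15.5 and 15.9 in the WT mice and 13.4, 13.0, 12.8 and 11.9 in the 16p11.2+/- mice (log2 fold change -0.27, standard error 0.08, unadjusted p = 0.00709 and adjusted p = 0.859 with edgeR). Hap1, a trafficking adaptor of the receptor, had 160.4 FPKM in DF-1062 and 23.5 to 57.99 in the other mice (log2 fold change 1.0145, standard error 0.48). Insyn2a, an inhibitory synapse protein gene listed in the table by the older symbol Fam196a, differed by 0.45 on the log2 scale (standard error 0.32), and Insyn1, which links gephyrin to dystroglycan, by -0.24 (standard error 0.19). The most abundant was Gabarapl1, at 208 ± 4.24 FPKM in WT and 210.4 ± 6.50 in 16p11.2+/- mice (SD, n = 4 each).

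Chloride transport sets the driving force of the receptor. Of 6 such genes, 2 had a log2 fold change above 0 and 4 below, with a median of -0.035, and with edgeR 0 had an adjusted p and 2 an unadjusted p under 0.05 (4.32% over all genes tested). Slc12a5, the neuronal chloride extruder KCC2, was the most abundant, with 64.9 ± 3.39 FPKM in WT and 72.2 ± 9.71 in 16p11.2+/- mice (SD, n = 4 each, log2 fold change 0.13, standard error 0.10). Slc12a2, the chloride importer NKCC1, which choroid plexus also expresses, had 59.0 FPKM in WT-1063 and 31.1 to 37.6 in the other WT mice (log2 fold change -0.47, standard error 0.20, unadjusted p = 0.0435 and adjusted p = 0.859 with edgeR). WT-1063 had the highest level of 6 of 6 choroid plexus genes, and their part in this value was not tested. The kinase genes Wnk3 and Stk39 had log2 fold changes of 0.27 (standard error 0.12) and -0.19 (standard error 0.26).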

How the data were processed

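Reads of 8 striatum libraries were trimmed, mapped with Hisat2 and counted on genes with Htseq-count by the authors, who deposited raw counts per gene and mouse together with FPKM values. The FPKM equalled the count divided by gene length and total count in 100% of values compared. The submitters' processing notes also name Bowtie 0.12.2 and the builds mm8 and mm9 with no stated role, but the gene lengths equal those of GENCODE M21 (GRCm38) for 95.6% of 17180 genes and for all 7 subunit genes. The deposited table of the authors' comparison (group signals, fold changes and p-values) and the binned FPKM summary were not used.

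The test was edgeR's quasi-likelihood test (version 4.0.16, R 4.3.3) after TMM scaling. The filter filterByExpr asked for 10 counts, and 15 in total, and left 18294 genes, over which p was adjusted by Benjamini-Hochberg (threshold 0.05). The standard error was the log2 fold change divided by the square root of F, and intervals are at 95%. The code was tested on simulated data. Log2 CPM and marker scores used TMM scaling over all genes and a prior count of 2. Same-genotype mice differed by 8.88 to 62.9 times the sampling noise, as chi-square over its degrees of freedom, and each mouse counted as 1 sample. Depth of 15125051 to 16523429 counts limits precision only for genes with few counts, and counting errors cover sampling of reads only.

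Named genes were the subunit genes, and of the partner and chloride lists the 2 highest and 2 lowest log2 fold changes, the most abundant gene and any gene past the threshold. For likeness up to 3 of the closest genes were named. Some genes these rules take are not reported here, and shares of alpha subunits are therefore over Gabra2 to Gabra5. The members and lists were chosen with earlier results of these data known, and the hypothalamus list after its values were seen. Alternative fits used DESeq2 1.42.0, voom or trend models of limma 3.58.1 (the trend model on log2 of FPKM plus 1 or 0.1), RLE factors, library totals, no filter, a filter of 10 counts in each mouse, marker scores as covariates and each mouse left out.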

Additional observations from a re-analysis of the deposited data

Results flagged for a closer look

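In 100 groups of 4 mice (the FPKM in 1 genotype of each subunit, partner and chloride gene tested, or a marker score), the gap of the highest or lowest mouse to its neighbour was compared with the whole range. In 6 of them a mouse lay far from the others, past Dixon's 95% critical value, and chance gives about 1 in 20 such groups. None of the 7 subunit genes held such a mouse in either genotype. The FPKM of Gabrg3 in DF-1037, 2.997 against 5.15 to 5.37 in the other 16p11.2+/- mice, had a gap of 0.908 of the range. The thalamus marker score of WT-1063, 6.54 against 3.27 to 3.41 in the other WT mice, had a gap of 0.958, and the FPKM of Stk39 in the same mouse, 29.7 against 13.5 to 14.3, one of 0.951. Nlgn2, an adhesion molecule of inhibitory synapses, had 34.2 FPKM in DF-1062 against 27.2 to 28.2 (0.863). Clptm1, a protein that limits receptor export from the endoplasmic reticulum, had 21.9 in DF-1037 against 24.5 to 24.7 (0.915). Wnk3 had 3.78 in WT-1061 against 3.34 to 3.41 (0.852). Nlgn2 and Clptm1 are named here because of these values.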

How the results depend on the processing

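The count of subunit genes with an adjusted p under 0.05 was 0 of 7 with edgeR and in each of the 21 alternative fits, and likewise 0 for the other subunit, partner and chloride genes. The count over all genes, 20 with edgeR, was 31 with DESeq2, 13 with the thalamus score as a covariate, 11 without DF-1037 and DF-1062 and 8 with the hypothalamus score. The last 2 alternatives were chosen after seeing the data. Leaving out 1 mouse at a time gave 8 to 18 genes. These fits have fewer samples or residual degrees of freedom than the fit on 8 mice, and DESeq2's larger count was not examined further.

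The direction of Gabrb2 held in each fit. The log2 fold change, with each mouse left out in turn, was -0.25 to 0.11 for Gabra2, 0.22 to 0.61 for Gabra3, -0.28 to 0.10 for Gabra4, -0.24 to 0.14 for Gabra5, 0.05 to 0.18 for Gabrb1, 0.19 to 0.39 for Gabrb2 and -0.32 to 0.17 for Gabrd. Signs turned without WT-1041 (Gabra2 0.03, Gabra5 0.14), WT-1061 (Gabra2 0.05), WT-1063 (Gabra4 0.04, Gabrd 0.02), DF-1018 (Gabra5 0.02), DF-1037 (Gabra2 0.11) and DF-1062 (Gabra4 0.10, Gabrd 0.17). They also turned with the thalamus score (Gabra2 0.28, Gabra5 0.21), the cortical score (Gabra5 0.06), the medium spiny neuron score (Gabra2 0.02, Gabra4 0.06, Gabrd 0.12), the hypothalamus score (Gabra4 0.17, Gabrb1 -0.01, Gabrd 0.32) and a pseudocount of 0.1 (Gabra5 0.00). Without DF-1037 and DF-1062 the values were 0.05 for Gabra2, -0.08 for Gabra3, 0.11 for Gabra4 and 0.17 for Gabrd. The cause of these turns was not tested, and the lowest adjusted p over all fits was 0.615 to 0.751 per gene. No paired analysis was possible because WT and 16p11.2+/- mice have no number in common. The labels give no batch.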
